A study of Danio rerio with 9 samples.

Results

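Larvae given 12-h light were compared with larvae given 3-h light, gene by gene, in 3 genotypes. The comparison took 6 of the 9 arrays of the study, the 3 arrays of 12-h light and the 3 arrays of 3-h light, and paired them by genotype. The 3 arrays of larvae kept in darkness took no part in it. RNA came from the whole body of zebrafish (Danio rerio) larvae at 6 dpf (days post fertilization), and each combination of genotype and lighting was measured on 1 Agilent 1-colour array. The groups at 12-h light were DKO larvae, which lack zPer2 and zCry1a, TKO larvae, which lack zPer2, zCry1a and zCry2a, and WT larvae, and the groups at 3-h light were the same 3 genotypes. All larvae were raised in constant darkness until the light was given. In the knockouts, zPer2 and zCry1a carry nonsense mutations made with TALENs, and zCry2a was disrupted with CRISPR-Cas9. Sampling of DKO larvae is described as 12 h after light onset, so their 3-h group was back in darkness by then. In DKO larvae the length of the light and the time since it ended therefore cannot be told apart. The sampling time of TKO and WT larvae and the number of larvae per array are not given in the sources used here.

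The zebrafish clock is a loop in which CLOCK or NPAS2 pairs with BMAL to switch on the Period and Cryptochrome genes, whose proteins then repress that pair. Zebrafish tissues sense light directly, and several clock and DNA repair genes, among them per2, cry1a and the photolyases, are known as light-induced genes in this animal. Photolyases are enzymes that use light to undo UV damage to DNA. Light also acts through the eye, where cones and rods carry a cascade of opsin, transducin, phosphodiesterase, opsin kinase and arrestin, and through the pineal gland, which makes melatonin at night. Below, the study's names map to the gene symbols as follows: zPer2 is per2, zCry1a is cry1a, zCry2a is cry3a and zCry2b is cry3b.

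A level is the log2 signal of a probe minus the 75th percentile of its array, so that 0 is a signal at that percentile. A difference is the level at 12-h light minus the level at 3-h light in the same genotype, so that 1 is 2-fold higher and -1 is 2-fold lower at 12-h light. Where a gene has several probes, its levels are means over them, and the test quoted is that of the probe with the largest mean difference. A probe was tested when it was well above background on all 3 arrays of at least 1 lighting, which held for 38207 of 43603 probes. Limma was fitted with terms for genotype and lighting, and calls were made where p, adjusted by Benjamini and Hochberg's method, stayed below 0.05. A gene counts as called where at least 1 of its probes was called and none was called the other way, and the text says where other probes of a named gene were not called. With 1 array per condition, the 3 genotypes stand in for replicates. The p-values therefore measure a lighting difference against what an additive model leaves over, which holds any difference between genotypes in the response. An exact sign-flip test of 1 gene over 3 pairs cannot go below p = 0.25, so no such p is given. Lightings are said not to overlap where every 12-h level of a gene lies on 1 side of every 3-h level. This describes levels only. The share of all tested probes without overlap was not counted, and large called differences make it more likely.

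The 6 arrays were alike in quality. The 75th percentile of the signal lay between 547 and 633, between 86.4% and 89.8% of spots were well above background, no spot was saturated, and 1 to 8 irregular spots per array were left out. Levels correlated between 0.986 and 0.995 across pairs of arrays. Each genotype has its own slide, so the genotype term is also the slide. On each slide the 3-h light array is at position 2 and the 12-h light array at position 3 or 4, so lighting and position cannot be told apart. Each of the 15 lists of tissue markers, from skeletal muscle to germ line, had at least 3 genes well above background on all 6 arrays. In whole-body RNA, a difference in the number of cells of a type and a difference in RNA per cell cannot be told apart.

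Transcripts of the 3 knocked-out genes were still measured in the knockout larvae. Levels of per2 were -1.68, -1.71 and -2.0 on the DKO, TKO and WT arrays at 12-h light, against -5.06, -5.77 and -5.90 at 3-h light. Levels of cry1a were 1.1, 1.0 and 1.68 at 12-h light in the same genotypes, against -0.88, -0.64 and -0.48 at 3-h light. For cry3a they were 1.36, 0.84 and 1.83 at 12-h light, against -0.28, -0.57 and 0.15 at 3-h light. Where the probes lie relative to the mutations is not known here, so these levels do not check the genotypes. They show that the 3 transcripts were higher at 12-h light in the mutants as in WT larvae, with no overlap between lightings.

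Limma called 528 of 38207 probes (1.38%), of which 374 were higher at 12-h light (0.979%) and 154 were lower (0.403%). All 528 differed with the same sign in DKO, TKO and WT larvae, which the test itself favours. At an unadjusted p under 0.05, 6383 probes passed. At least 1 probe passed in 3030 of the 12771 named genes tested, the share beside which such counts of list members stand. The size of the called differences had a median of 0.71 and lay between 0.42 and 4.77, and 423 of the called probes differed by under 2-fold on average. The median difference over all probes tested was -0.01. For 377 of the called probes a gene symbol was available, and they named 261 genes, 177 higher (1.39% of 12771 genes tested) and 84 lower (0.658%). No gene had probes called in both directions. The shares of 1.39% and 0.658% stand beside all counts of called list members below.

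The call count rests on all 3 pairs. Without the WT pair 122 probes were called, without the DKO pair 87, and without the TKO pair 263. Of the 261 called genes, 36 were called without each of the pairs in turn, and 148 were called in none of these fits. A gene below is described as called without each pair where it belongs to the 36.

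**Figure D1:**
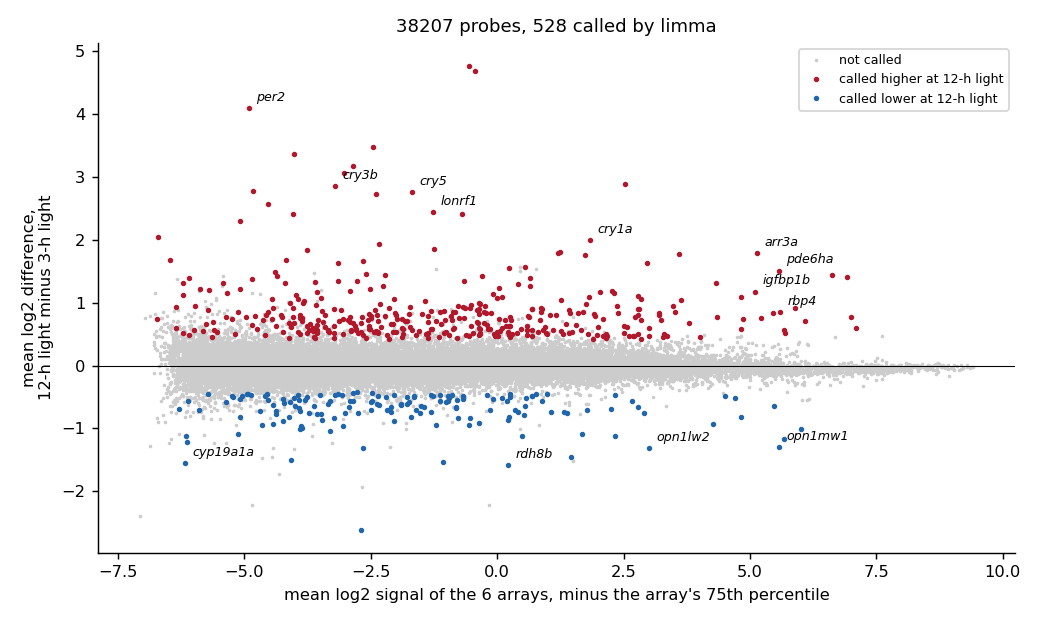
Mean difference between 12-h light and 3-h light (y axis, log2) of each of the 38207 probes tested, against its mean level over the 6 arrays (x axis, log2 signal minus the 75th percentile). Red points are the 374 probes called higher at 12-h light and blue points the 154 called lower, and grey points were not called; the largest differences, up to 4.77, are increases.

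Counted by size with no test, 59 probes were up by 2-fold or more in DKO, TKO and WT larvae alike (0.154% of those tested) and 13 were down by as much in all 3 genotypes (0.034%). Limma called 69 of these 72 probes. Within a single genotype, 243 probes differed at least 2-fold in DKO larvae (0.636%), 200 in TKO larvae (0.523%) and 273 in WT larvae (0.715%). Increases outnumbered decreases in each, with 145 higher and 98 lower in DKO, 146 and 54 in TKO, and 157 and 116 in WT larvae. The lists of the genotypes overlapped in part. Of probes 2-fold higher in DKO larvae, 50.3% were also 2-fold higher in TKO larvae, which is 50% of the TKO list, and 46.9% were so in WT larvae, which is 43.3% of the WT list. TKO and WT larvae shared 75 increases, 51.4% of the TKO list and 47.8% of the WT list. Of the decreases, DKO and TKO larvae shared 20 (20.4% and 37.0% of their lists), DKO and WT 24 (24.5% and 20.7%), and TKO and WT 18 (33.3% and 15.5%). Whether the shares differ between directions was not tested. The called probes had like medians in each genotype. Those called higher had a median difference of 0.74 in DKO, 0.71 in TKO and 0.73 in WT larvae, and those called lower had -0.66, -0.61 and -0.61, although the calls themselves favour probes with like differences.

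The largest increase of a named gene was in per2, a repressor of the clock, and cryptochrome and photolyase genes were among those that followed. The per2 probe that was well above background on all 6 arrays had levels of -0.55, -0.60 and -1.01 at 12-h light in DKO, TKO and WT larvae, against -4.09, -4.12 and -4.38 at 3-h light. Its difference was 3.47 (SE 0.07, limma adjusted p = 0.000212). The lowest 12-h level of per2 lay far above its highest 3-h level. A further per2 probe had a difference of 4.09 (SE 0.27, limma adjusted p = 0.00714) and was well above background on only 1 of the 3 arrays of 3-h light.

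Of the 6 cryptochromes without photolyase activity, 3 were called higher and 1 lower. The paper counts cry1a, cry1b, cry3a and cry3b as transcriptional repressors in the clock, but not cry2 or cry4. The symbol cry2 does not stand for the study's zCry2a or zCry2b. The gene cry4 is better known as a candidate light or magnetic field sensor in birds. Levels of cry3b were -2.67, -2.87 and -2.30 in DKO, TKO and WT larvae at 12-h light, against -5.40, -5.51 and -5.38 at 3-h light, with a difference of 2.85 (SE 0.09, limma adjusted p = 0.000805). The differences of cry1a and cry3a were 2.0 (SE 0.10, limma adjusted p = 0.00366) and 1.57 (SE 0.08, limma adjusted p = 0.00363). In all 3 genes the lightings did not overlap, and each was called without each pair. For cry1b, with 1 of 3 probes called, the difference was -0.53 (SE 0.06, limma adjusted p = 0.0293), and no fit without a pair called it. The other members were not called: cry2 differed by 0.13, -0.29 and -1.03 in DKO, TKO and WT larvae and cry4 by 0.05, 0.12 and 0.12.

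**Figure D2:**
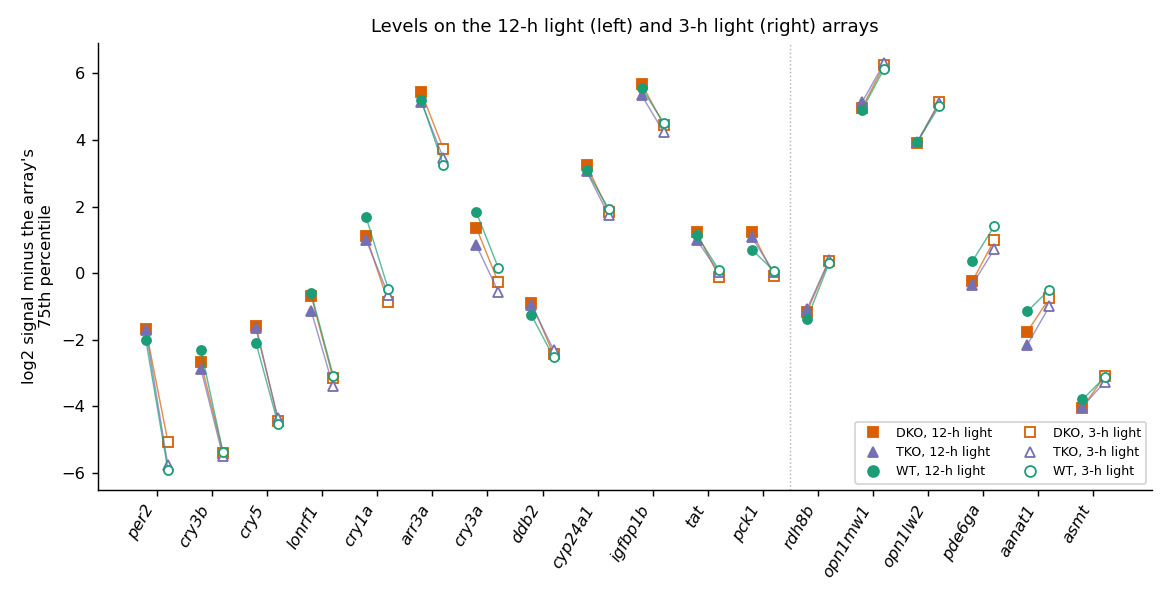
Levels (log2 signal minus the 75th percentile of the array) of 18 genes on the 6 arrays, filled symbols for 12-h light on the left of each pair and open symbols for 3-h light on the right, with a line joining the arrays of a genotype (squares DKO, triangles TKO, circles WT). Genes left of the dotted line were called higher at 12-h light and those right of it lower. In none of the 18 genes do the levels of the lightings overlap, but all 18 were picked from called genes, which favours this.

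None of the other 3 Period genes passed the test, and all 3 had negative mean differences, as had 56.4% of all named genes. The differences of per1b were -0.92, -1.26 and -2.31 in DKO, TKO and WT larvae (limma adjusted p = 0.0825 for its probe of largest difference), those of per1a -0.39, -0.61 and -1.39 and those of per3 -0.03, -0.05 and -0.39. For per1b the 12-h levels were -1.73, -1.48 and -3.79, against -0.81, -0.22 and -1.48 at 3-h light. The difference of per1b was farthest from 0 in WT larvae. The probes of per1a disagreed in size, with -0.71, -1.06 and -2.60 at the dimmer and -0.07, -0.17 and -0.18 at the brighter. Those of per3 gave -0.28, -0.03 and -0.58 at the dimmer and 0.22, -0.07 and -0.20 at the brighter, in the same order of genotypes. In the positive arm calls were all in the upward direction. Of the 6 CLOCK, NPAS2 and BMAL genes all 6 had positive mean differences, against 43.6% of all named genes. Limma called npas2, with 0.67 (SE 0.07, limma adjusted p = 0.0232), and bmal2, with 0.66 (SE 0.09, limma adjusted p = 0.0413), though no fit without a pair called either. The better known bmal1a and bmal1b differed by 0.35, 0.23 and 0.49 and 0.41, 0.34 and 0.53 in DKO, TKO and WT larvae and did not pass.

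Factors that tie the core loop to its outputs gave few calls, all of them higher. Rev-erb receptors, encoded by the nr1d genes, repress BMAL genes and ROR receptors activate them. Of 9 tested, limma called only rorcb, with 0.52 (SE 0.06, limma adjusted p = 0.0312). The PAR bZIP activators dbp, tef and hlf and the repressor nfil3 compete for the same D-box sites. Of 9 tested, 2 were called, both of them nfil3 genes: nfil3-6 with 1.02 (SE 0.09, limma adjusted p = 0.0125), all 5 of its probes called, and nfil3-5 with 0.73 (SE 0.10, limma adjusted p = 0.0421). Their opponents were not called, with differences in DKO, TKO and WT larvae of -1.02, -0.86 and -1.84 for dbpb (limma adjusted p = 0.0631) and -0.48, -0.46 and -1.1 for dbpa. None of the 7 tested genes among the other repressors and turnover factors was called by limma, and 1 passed an unadjusted p under 0.05, against 3030 of the 12771 named genes tested.

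Several of these uncalled genes had their lowest difference in WT larvae. The differences in DKO, TKO and WT larvae were -0.15, 0.17 and -1.42 for nr1d1, -0.14, -0.20 and -0.71 for nr1d2b, -0.56, -0.47 and -1.12 for bhlhe41 and 0.21, -0.04 and -0.62 for bhlhe40, genes chosen by size within their lists. At 12-h light nr1d1 had levels of -0.05, 0.20 and -1.24, against 0.10, 0.03 and 0.18 at 3-h light, so the 12-h WT array lay below the other 5. Without the WT pair the mean difference of nr1d1 was 0.01 and that of bhlhe40 was 0.08, in place of -0.47 and -0.15. With 1 array per genotype and lighting, a difference between genotypes in the response could not be tested.

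**Figure D3:**
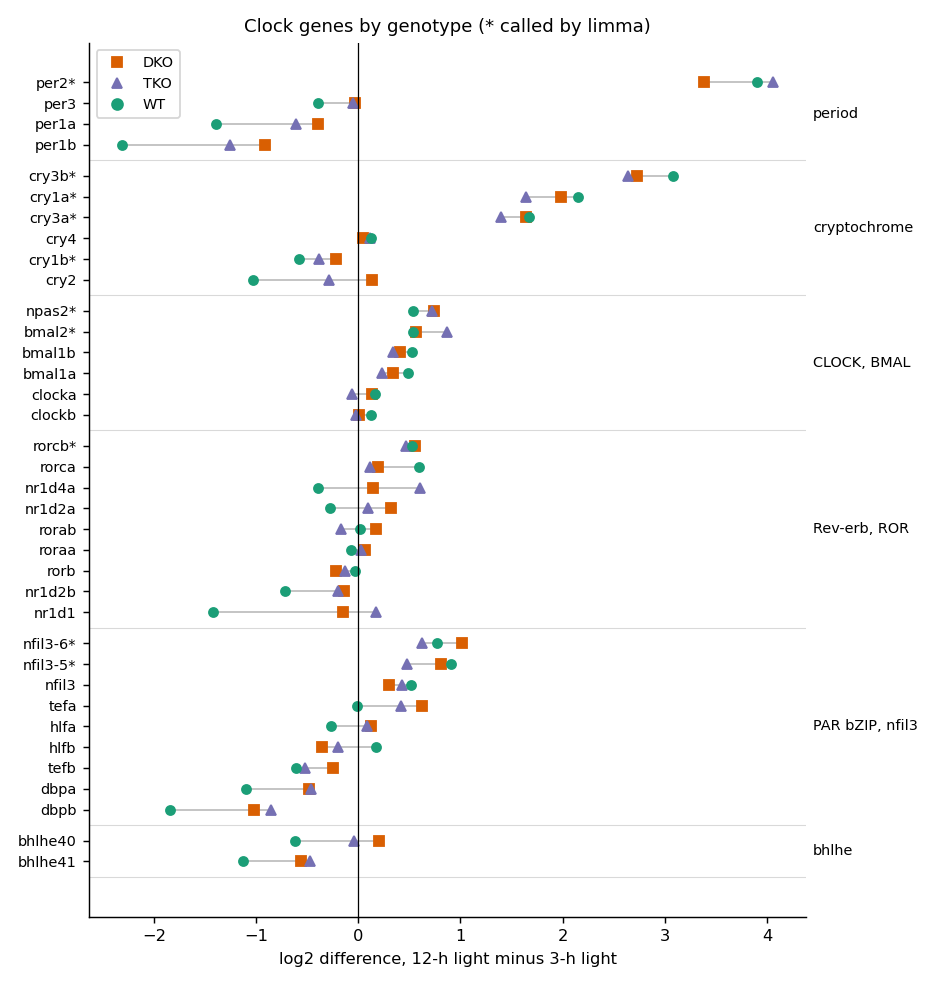
Difference between 12-h light and 3-h light (x axis, log2) of each clock gene tested, by genotype (squares DKO, triangles TKO, circles WT), with genes grouped by role and an asterisk on those called by limma. The called genes have their 3 symbols close together and on 1 side of zero, a pattern that the test itself favours. Among those not called, per1b, nr1d1 and dbpb have the WT symbol farthest to the left.

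Several genes of DNA repair rose, the light-driven photolyases among them. Of 16 genes of photolyases and nucleotide excision repair, 5 were called higher and none lower (31.2%, against 1.39% of all named genes). The list was chosen with earlier results of these data known. Of its called genes, cry5 and ddb2 are also among those the paper lists as induced by 12-h light in DKO larvae of this series. The share is therefore not independent support. For cry5, the photolyase of 6-4 photoproducts, levels were -1.59, -1.66 and -2.10 in DKO, TKO and WT larvae at 12-h light, against -4.44, -4.36 and -4.53 at 3-h light, with a difference of 2.76 (SE 0.10, limma adjusted p = 0.00149). The UV damage sensor gene ddb2 had levels of -0.89, -0.95 and -1.27, against -2.44, -2.31 and -2.52 at 3-h light, with a difference of 1.43 (SE 0.09, limma adjusted p = 0.00591). Both genes were called without each pair, and neither had overlapping levels. The remaining 3 were cry-dash, a photolyase of single-stranded DNA (0.85, SE 0.09, limma adjusted p = 0.0239), cpdp, the photolyase of cyclobutane pyrimidine dimers (0.85, SE 0.06, limma adjusted p = 0.0092), and xpc, which with DDB2 finds damage in the genome (0.73, SE 0.08, limma adjusted p = 0.023). In these 3 genes and in cry5 and ddb2 the mean difference over probes was largest in DKO larvae and smallest in WT larvae. For cry-dash it was 1.06, 0.83 and 0.66 in DKO, TKO and WT larvae. Not every probe kept this order. A cpdp probe gave 0.98, 0.70 and 0.75, and a cry5 probe 2.69, 2.71 and 2.30. With 1 array per genotype and lighting, the order was not tested. The other 11 genes were not called, and the median over the list was 0.04. Without the WT pair 2 of the 16 were called, without the DKO pair 2, and without the TKO pair 3.

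Cone phototransduction changed in both directions. Of 22 cone genes tested, 4 were called higher (18.2%) and 9 lower (40.9%), the highest share of lower calls among the 27 lists. The list was chosen with earlier results of these data known. Of the genes called higher, pde6ha, arr3b and rcvrn3 are also on the paper's list of genes induced by 12-h light in DKO larvae. Of those called lower, pdca, pde6c, gnat2 and grk7b are in a cluster that the paper describes as inhibited in larvae forming behavioral rhythms. Both come from this series, so the shares are not independent support. Those that rose were 2 arrestins, a recoverin and a phosphodiesterase inhibitor. The cone arrestins arr3a and arr3b, which cap activated opsin, had differences of 1.79 (SE 0.07, limma adjusted p = 0.00219) and 1.80 (SE 0.09, limma adjusted p = 0.00376). Levels of arr3a were 5.44, 5.14 and 5.20 in DKO, TKO and WT larvae at 12-h light, against 3.74, 3.46 and 3.24 at 3-h light. A recoverin gene, rcvrn3, encodes a calcium sensor of the kind that restrains opsin kinase, and had levels of 2.08, 1.93 and 1.69, against 0.58, 0.38 and 0.26 at 3-h light, with a difference of 1.63 (SE 0.06, limma adjusted p = 0.00156). The inhibitory subunit gene of cone phosphodiesterase, pde6ha, had levels of 7.17, 7.13 and 6.64, against 5.80, 5.77 and 4.99 at 3-h light, with a difference of 1.51 (SE 0.09, limma adjusted p = 0.00489). All 4 were called without each pair, and in none did the lightings overlap.

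The 9 cone genes that fell were 5 opsins and genes of transducin, phosphodiesterase, phosducin and an opsin kinase. Green-sensitive opsin opn1mw1 had levels of 4.97, 5.14 and 4.91 at 12-h light in DKO, TKO and WT larvae, against 6.26, 6.32 and 6.15 at 3-h light, and a difference of -1.30 (SE 0.06, limma adjusted p = 0.00336). Red-sensitive opsin opn1lw2 had levels of 3.91, 3.95 and 3.94, against 5.15, 5.12 and 5.02 at 3-h light, and a difference of -1.31 (SE 0.06, limma adjusted p = 0.00336). These opsin genes have near-identical copies, so how far their probes tell the copies apart is not known here. For opn1mw2 and opn1mw3, other green opsins, the differences were -1.13 (SE 0.08, limma adjusted p = 0.00875) and -1.02 (SE 0.09, limma adjusted p = 0.0148), the second with 1 of 2 probes called, and for the blue opsin opn1sw2 -0.81 (SE 0.07, limma adjusted p = 0.0137). The UV opsin opn1sw1 was not called, with a mean difference of -0.10. Downstream of the opsins, the catalytic subunit gene of cone phosphodiesterase, pde6c, differed by -0.93 (SE 0.13, limma adjusted p = 0.0447), the cone transducin gene gnat2 by -0.78 (SE 0.07, limma adjusted p = 0.0147) with all 3 probes called, pdca, a gene of phosducin, which binds transducin subunits, by -0.68 (SE 0.08, limma adjusted p = 0.0324) and grk7b, a gene of the kinase that starts opsin shut-off, by -0.63 (SE 0.09, limma adjusted p = 0.0447). Called without each pair were opn1mw1, opn1lw2 and opn1mw2. Over the whole cone list 8 genes were called without the WT pair, 7 without the DKO pair and 10 without the TKO pair.

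Rod genes gave fewer calls, all of them lower. Of 19 rod genes, none was called higher and 3 lower (15.8%). The inhibitory subunit gene of rod phosphodiesterase, pde6ga, had levels of -0.25, -0.34 and 0.35 in DKO, TKO and WT larvae at 12-h light, against 1.0, 0.72 and 1.42 at 3-h light, and a difference of -1.13 (SE 0.07, limma adjusted p = 0.00577). Its direction was opposite to that of the cone counterpart pde6ha. Rhodopsin kinase grk1b differed by -0.82 (SE 0.06, limma adjusted p = 0.00974) and prph2b, a structural protein of the outer segment with 1 of 3 probes called, by -0.44 (SE 0.06, limma adjusted p = 0.049). Rhodopsin itself was not called, with -0.18, -0.24 and -0.19 in DKO, TKO and WT larvae. Without a pair, the count of called rod genes was 1 without WT, 1 without DKO and 2 without TKO. Photoreceptors clear used retinal by reducing it, and rdh8b, a retinol dehydrogenase of the kind that does this, had the largest decrease among the called genes with a symbol, with levels of -1.16, -1.08 and -1.38 at 12-h light, against 0.37, 0.39 and 0.30 at 3-h light, and a difference of -1.59 (SE 0.07, limma adjusted p = 0.00248). It was called without each pair.

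Lens and photoreceptor markers were lower at 12-h light in their summed signal. All 8 lens genes tested had negative mean differences with a median of -0.14, against 56.4% of all named genes with negative ones. Limma called none of them, and 5 passed an unadjusted p under 0.05, against 3030 of the 12771 named genes tested. The log2 of the summed lens signal was 7.51 to 7.62 at 12-h light, against 7.70 to 7.91 at 3-h light. For the 7 photoreceptor markers tested, with 1 called higher and 3 lower, the summed level was 7.27 to 7.39 at 12-h light. At 3-h light it was 7.59 to 7.66. These markers are themselves members of the cone or rod list. The summed level of the 22 cone genes overlapped between lightings, with 8.83 to 9.07 at 12-h light, against 8.85 to 9.09. That of the 19 rod genes did not, with 6.15 to 6.37 at 12-h light, against 6.39 to 6.54. The part of a changed amount of eye RNA in the cone and rod results was not tested.

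**Figure D4:**
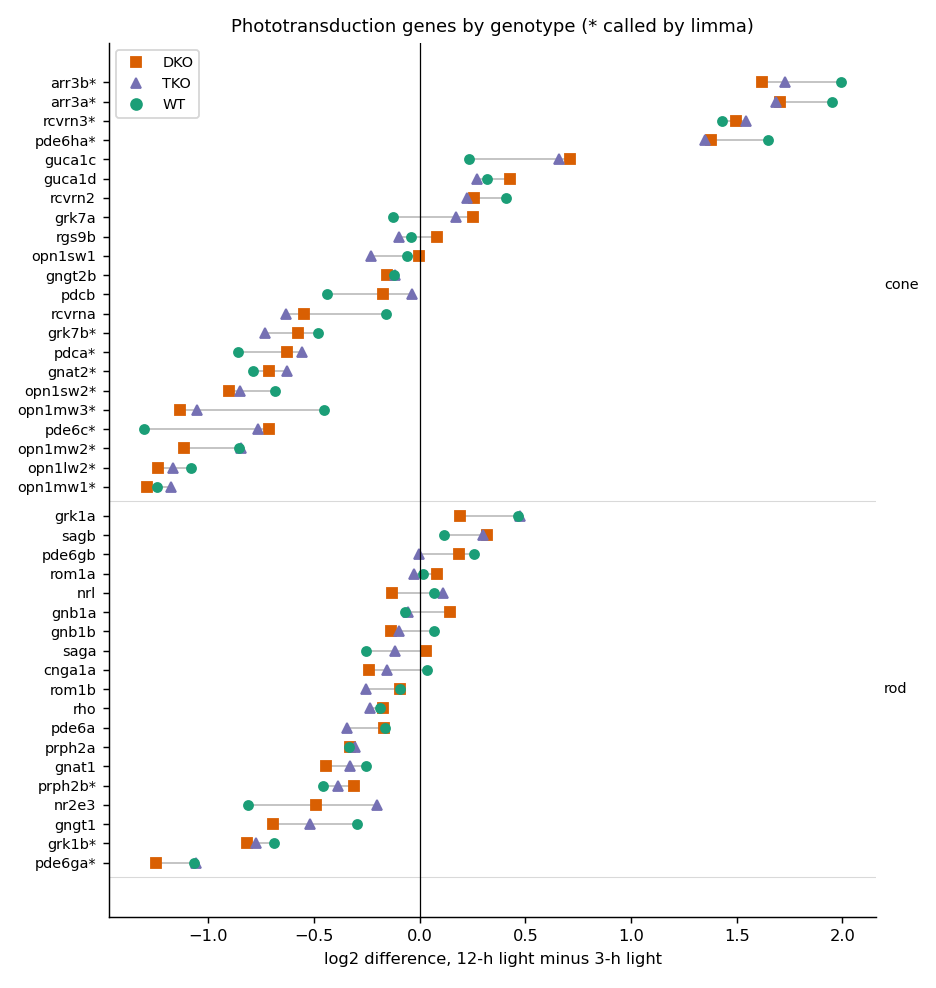
Difference between 12-h light and 3-h light (x axis, log2) of each of the 22 cone genes and 19 rod genes tested, by genotype (squares DKO, triangles TKO, circles WT), with an asterisk on genes called by limma. The 4 cone genes at the top lie at 1.35 or above in all genotypes, and opsins lie at the bottom of the cone group.

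In the pineal list, which holds melatonin synthesis and pineal opsin genes, 3 of 13 were called, all lower (23.1%). Levels of aanat1, a paralog of the pineal enzyme aanat2 that is known from the retina, were -1.75, -2.15 and -1.15 in DKO, TKO and WT larvae at 12-h light, against -0.75, -1.0 and -0.49 at 3-h light, and its difference was -0.94 (SE 0.11, limma adjusted p = 0.029). The gene of the last enzyme of melatonin synthesis, asmt, had levels of -4.04, -4.01 and -3.80, against -3.10, -3.28 and -3.13 at 3-h light, and a difference of -0.78 (SE 0.08, limma adjusted p = 0.0197). The opsin gene valopa differed by -0.75 (SE 0.07, limma adjusted p = 0.0139). The pineal enzyme gene aanat2 itself was not called and differed by -0.02, -0.10 and 0.26 in DKO, TKO and WT larvae. In none of these 3 genes did the levels of the lightings overlap. Calls in this list rest on all pairs: 1 gene was called without the WT pair, none by limma without the DKO pair and 1 without the TKO pair.

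Carotenoid and retinoid metabolism held 5 genes called higher and 1 lower, the rdh8b above, of 26 tested (19.2% and 3.85%). The gene bco1l, related to the enzyme that cuts beta-carotene into retinal, had levels of -1.54, -1.39 and -2.52 in DKO, TKO and WT larvae at 12-h light, against -3.36, -2.78 and -4.29 at 3-h light, and a difference of 1.66 (SE 0.10, limma adjusted p = 0.00532). Its relative bco2l, of the enzyme family that cuts carotenoids off-centre, differed by 0.90 (SE 0.08, limma adjusted p = 0.0158). Retinol is carried in the blood by rbp4, whose levels were 6.61, 6.70 and 6.80, against 5.88, 5.86 and 5.92 at 3-h light, with a difference of 0.85 (SE 0.07, limma adjusted p = 0.0129). The receptor of that carrier, stra6, differed by 0.58 (SE 0.08, limma adjusted p = 0.0474) with 1 of 3 probes called, and rpe65a, the retinoid isomerase gene, by 0.46 (SE 0.06, limma adjusted p = 0.0444). The levels of bco1l in WT larvae were lower than in the mutants at both lightings, so its 12-h WT level, -2.52, lay only a little above the highest 3-h level, -2.78. None of bco1l, bco2l and rbp4 overlapped between lightings. Of the whole list, 3 genes were called without the WT pair, 2 without the DKO pair and 7 without the TKO pair.

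Genes of fasting metabolism held the most called increases by number, 10, of the 27 lists. The list was chosen with earlier results of these data known. Among its called genes, igfbp1b, tat, pck1, pdk2b, ucp3 and slc25a47a are also on a list in the paper. That list holds genes induced by 12-h light in DKO larvae of this series. The number of calls is therefore not independent support. Of 25 genes of gluconeogenesis and the fasting response, 10 were called higher (40.0%, against 1.39% of all named genes) and none lower. Of the 25, 21 had a positive mean difference (84.0%, against 43.6% of all named genes), with a median of 0.38 against -0.02 over all named genes. The median was 0.42 in DKO, 0.32 in TKO and 0.27 in WT larvae. Levels of igfbp1b, a liver protein that binds insulin-like growth factors and is made in fasting, were 5.69, 5.34 and 5.56 in DKO, TKO and WT larvae at 12-h light, against 4.45, 4.23 and 4.52 at 3-h light, and the difference was 1.18 (SE 0.07, limma adjusted p = 0.00532). For tat, the enzyme that starts tyrosine breakdown, levels were 1.23, 0.99 and 1.14, against -0.11, 0.04 and 0.10 at 3-h light, and the difference was 1.17 (SE 0.09, limma adjusted p = 0.00974), with all 5 probes called. For pck1, which commits carbon to glucose synthesis, levels were 1.24, 1.08 and 0.71, against -0.08, 0.03 and 0.08 at 3-h light, and the difference was 1.04 (SE 0.14, limma adjusted p = 0.0406). None of these 3 genes overlapped between lightings. Also called were igfbp1a (0.81, mean over its probes), the glucose-6-phosphatase genes g6pc1a.1 (0.87) and g6pc1a.2 (0.49, 1 of 3 probes called), pdk2b, a kinase that holds back pyruvate dehydrogenase (0.85), the mitochondrial carriers ucp3 (0.98), ucp2 (0.48) and slc25a47a (0.94, 1 of 2 probes called).

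The fasting calls depend on the pairs used. Without the WT pair 6 of the 25 genes were called, without the DKO pair 3 and without the TKO pair 5, and igfbp1b, tat and pdk2b were called in each of these fits. The differences of pck1 and ucp3 were ordered alike, with 1.31, 1.05 and 0.63 for pck1 and 1.34, 0.96 and 0.63 for ucp3 in DKO, TKO and WT larvae. With 1 array per genotype and lighting, that order was not tested. Liver markers had a negative median of -0.16. None of 7 was called by limma, and 4 passed an unadjusted p under 0.05, against 3030 of the 12771 named genes tested. The log2 of their summed signal overlapped between lightings, with 7.67 to 8.06 at 12-h light, against 7.89 to 8.17 at 3-h light.

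A few hormone targets and catabolic genes of other tissues were called, all of them higher, where 1.39% of all named genes were called higher. Of 12 glucocorticoid targets 2 were called higher (16.7%): sgk1, a kinase that regulates ion transport (0.91, SE 0.07, limma adjusted p = 0.00896), and tsc22d3, also called GILZ (0.54, SE 0.07, limma adjusted p = 0.0349). A further glucocorticoid target, fkbp5, was not called and differed by -0.16, -0.42 and -0.90 in DKO, TKO and WT larvae. Of 11 genes of muscle protein breakdown, 10 had positive mean differences (90.9%, against 43.6% of all named genes), and 3 were called higher (27.3%). They were the muscle ubiquitin ligase genes trim63a (0.73, SE 0.06, limma adjusted p = 0.014) and fbxo32 (0.50, SE 0.06, limma adjusted p = 0.0326) and the ligase gene fbxo30a (0.81, SE 0.10, limma adjusted p = 0.0324). The muscle list includes trim63a, fbxo30b, klhl38b and psme4a, which the paper lists as induced by 12-h light in DKO larvae of this series. Its shares are therefore not independent support. Of 8 skeletal muscle markers none was called by limma, and 1 passed an unadjusted p under 0.05, against 3030 of the 12771 named genes tested. Their summed level was 9.60 to 9.78 at 12-h light, against 9.64 to 9.79 at 3-h light. For cyp24a1, the enzyme that breaks down active vitamin D, levels were 3.25, 3.06 and 3.09 in DKO, TKO and WT larvae at 12-h light, against 1.85, 1.74 and 1.93 at 3-h light, with a difference of 1.32 (SE 0.08, limma adjusted p = 0.00488). It was called without each pair, and the other 6 genes of the vitamin D list, the receptors included, were not called. The gene cyp24a1 is also on that list of the paper. None of the other called genes of this paragraph was called without each pair.

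Among 14 prostaglandin genes 3 were called higher (21.4%, against 1.39% of all named genes). They were ptgdsb.1 (1.11, SE 0.07, limma adjusted p = 0.00714) and ptgdsb.2 (0.90, SE 0.06, limma adjusted p = 0.00714), both of the lipocalin family of prostaglandin D synthases, and ptgesl (0.58, SE 0.07, limma adjusted p = 0.0322). Iron handling had 1 called gene of 15 (6.67%, against the same 1.39%), cybrd1, a reductase of dietary iron (0.58, SE 0.07, limma adjusted p = 0.0271). The iron hormone gene hamp had a larger mean difference, with 2.35, 1.22 and 1.02 in DKO, TKO and WT larvae, and did not pass (limma adjusted p = 0.0704 for its probe of largest difference). Its 12-h levels of 0.68, 0.32 and 1.65 lay above the 3-h levels of -1.67, -0.90 and 0.63 within each genotype but overlapped across them. In cholesterol synthesis 1 of 24 genes was called (4.17%, against the same 1.39%), msmo1, a demethylase of the later pathway (0.92, SE 0.07, limma adjusted p = 0.00833). The gene of the rate-limiting enzyme, hmgcra, differed by -1.60, -0.24 and -1.14 in DKO, TKO and WT larvae and was not called. No called gene of this paragraph was called without each pair.

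Cell cycle genes had mostly negative differences, and few passed the test. Of 44 genes of DNA replication and S phase, 42 had a negative mean difference (95.5%, against 56.4% of all named genes), with a median of -0.20. Several members of this list, such as mcm2, mcm4, mcm5 and mcm6, are also in a gene cluster that the paper drew from this series. The paper describes that cluster as inhibited in larvae that form behavioral rhythms. The share of negative differences is therefore not independent support. Of the 44, 1 was called (2.27%, against 0.658% of all named genes called lower). It was mcm5, a subunit of the replicative helicase (-0.82, SE 0.11, limma adjusted p = 0.0385, 2 of 4 probes called). At an unadjusted p under 0.05, 20 of the 44 passed, against 3030 of the 12771 named genes tested. The median was -0.32 in DKO, -0.01 in TKO and -0.24 in WT larvae, and whether genotypes differ could not be tested. Without the TKO pair 3 genes of the list were called, and none was called by limma without the WT or the DKO pair. Of 32 mitosis genes 26 were negative (81.2%, against 56.4% of all named genes), but the median was -0.30 in DKO, 0.06 in TKO and -0.03 in WT larvae, and 6 of the 32 had the same sign in all 3. In this list 1 gene was called (3.12%, against 0.658% of all named genes), the kinase gene melk (-0.57, SE 0.06, limma adjusted p = 0.0218, 1 of 3 probes called). The mitosis genes melk, ccna2 and hmmr are also in that cluster of the paper. None of 22 cell cycle brakes and G1 regulators was called by limma. Among them 10 passed an unadjusted p under 0.05, against the same 3030 of 12771.

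In the lists of heat-shock proteins (30 genes), antioxidant genes (26 genes) and inflammation genes (20 genes) limma called none. At an unadjusted p under 0.05, 6, 10 and 7 of them passed, against 3030 of the 12771 named genes tested. Glycolysis had 2 of 35 genes called (5.71%, against 0.658% of all named genes called lower), both lower: eno1b (-0.65, SE 0.07, limma adjusted p = 0.0202, 1 of 2 probes called) and pklr, the pyruvate kinase of the liver (-0.52, SE 0.07, limma adjusted p = 0.0364, 2 of 6 probes called). Of 20 immediate early genes 1 was called lower (5.0%, against the same 0.658%), nr4a1 (-0.47, SE 0.06, limma adjusted p = 0.0398, 1 of 2 probes called, the other at -0.06). Of 12 fatty acid synthesis genes 1 was called higher (8.33%, against 1.39% of all named genes), pgd, which makes NADPH (0.47, SE 0.06, limma adjusted p = 0.0413, 2 of 4 probes called). Over the 27 lists together 45 members were called higher and 22 lower.

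**Figure D5:**
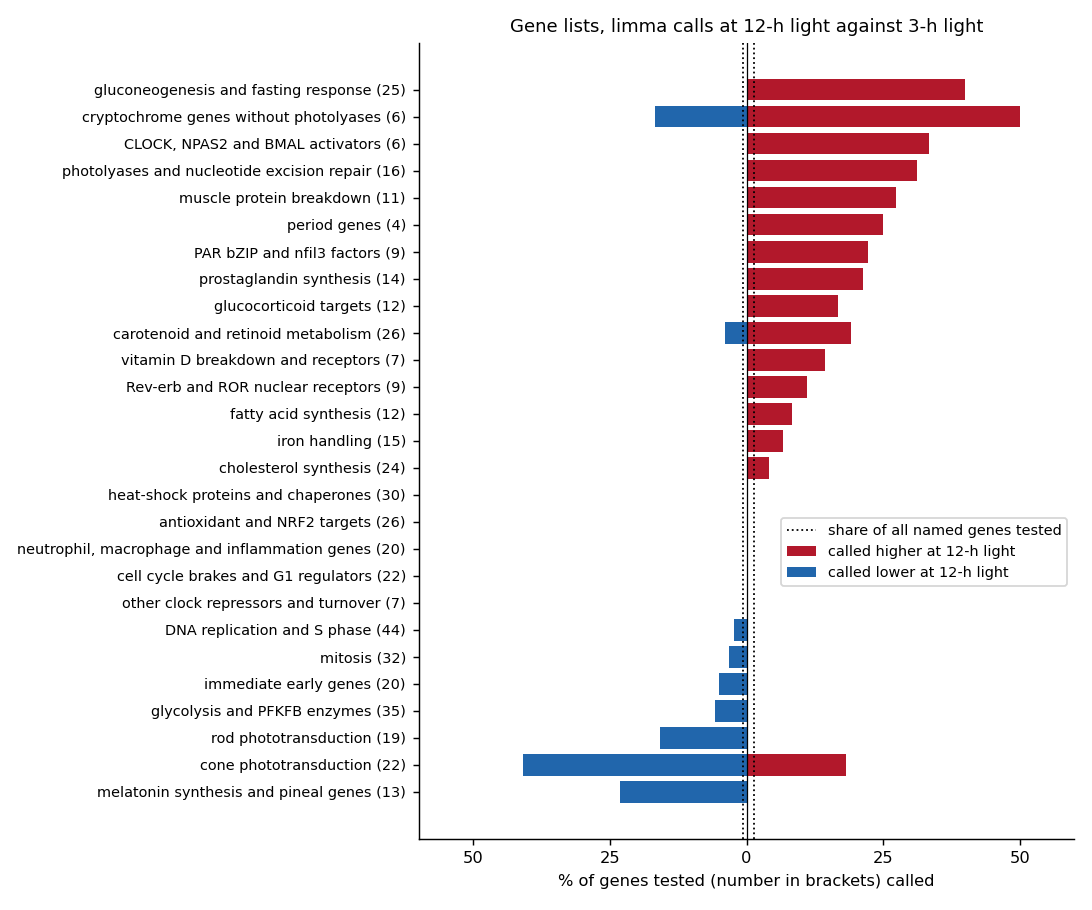
Percent of the tested genes of each of the 27 lists (number tested in brackets) that limma called higher (red, right of zero) or lower (blue, left of zero) at 12-h light against 3-h light. Dotted lines mark the shares over all named genes tested, 1.39% higher and 0.658% lower. Fasting and cryptochrome genes reach farthest to the right, cone phototransduction farthest to the left. Several lists, these among them, hold genes that the paper picked from this series.

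Among the 12 largest increases of named genes were several outside these lists. Levels of lonrf1, a gene with RING and LON domains, were -0.67, -1.12 and -0.59 in DKO, TKO and WT larvae at 12-h light, against -3.16, -3.40 and -3.08 at 3-h light, and its difference was 2.45 (SE 0.07, limma adjusted p = 0.000672) with all 3 probes called. The transcript si:dkey-104n9.1 had levels of -1.04, -0.59 and -1.51, against -3.67, -3.42 and -4.23 at 3-h light, and a difference of 2.73 (SE 0.07, limma adjusted p = 0.000433). For lratb.2, related to the enzyme that esterifies retinol, the difference was 1.93 (SE 0.11, limma adjusted p = 0.0051), and for nmnat1-rbp7a, a read-through of an NAD synthesis gene and a retinoid binding gene, it was 1.84 (SE 0.09, limma adjusted p = 0.00363). All 4 were called without each pair and did not overlap between lightings. For trim108 both probes were called. The one well above background on all 6 arrays differed by 1.32 (SE 0.15, limma adjusted p = 0.0289), and the other was not well above background on any array of 3-h light and was at least 1.92-fold higher at 12-h light (limma adjusted p = 0.0324). The probes of adm2a, an adrenomedullin-like peptide gene, disagreed. The called one was not well above background on any array of 3-h light and was at least 1.98-fold higher at 12-h light (limma adjusted p = 0.0167), while the other 3, well above background on all 6 arrays, differed by 0.07, -0.004 and 0.19 and were not called.

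Among the 12 largest decreases were genes outside the eye. The ovarian aromatase gene cyp19a1a, which makes estrogen, had levels of -6.30, -7.02 and -7.17 in DKO, TKO and WT larvae at 12-h light, against -5.22, -5.66 and -5.61 at 3-h light. Its probe of largest difference was well above background on 1 of the 3 arrays of 12-h light and differed by -1.55 (SE 0.14, limma adjusted p = 0.0147), or by -1.22 with dim signals raised to the floor, the lowest signal well above background. The single probe of or42a4, an odorant receptor gene, was also well above background on 1 of these 3 arrays and differed by -1.21 (SE 0.09, limma adjusted p = 0.00781), or by -1.14 with the floor. Relaxin-3 is a brain peptide, and its gene rln3b had levels of -3.73, -3.95 and -3.78, against -2.78, -2.85 and -2.71 at 3-h light, with a difference of -1.04 (SE 0.07, limma adjusted p = 0.00598). The calcium sensor gene ncaldb differed by -1.08 (SE 0.09, limma adjusted p = 0.011) and the methyltransferase gene ntmt2 by -1.0 (SE 0.14, limma adjusted p = 0.0443). The transcript si:ch211-132b12.7 had 1 of 3 probes called, which differed by -0.96 (SE 0.13, limma adjusted p = 0.0394), while its probe of largest difference was not called (-1.24, SE 0.29, limma adjusted p = 0.131). Of the genes of this paragraph, cyp19a1a and rln3b were called without each pair.

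The 2 probes of largest difference on the arrays have no gene symbol here. Probe A_15_P406095 had levels of 1.82, 2.12 and 1.55 in DKO, TKO and WT larvae at 12-h light, against -2.81, -2.84 and -3.18 at 3-h light, a difference of 4.77 (SE 0.08, limma adjusted p = 0.000212). Probe A_15_P753176, which the array design assigns to the same transcript cluster, differed by 4.68 (SE 0.09, limma adjusted p = 0.000212). At the other end, probe A_15_P176747 had levels of -4.22, -3.86 and -3.89, against -1.22, -1.23 and -1.69 at 3-h light, and a difference of -2.61 (SE 0.15, limma adjusted p = 0.00488), and probe A_15_P184736 differed by -1.51 (SE 0.14, limma adjusted p = 0.0171). In all, 151 of the 528 called probes had no symbol.

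Set beside the larvae kept in darkness, which were not part of the test, the 3-h levels took different places. For per2, WT larvae had -5.79, -5.90 and -2.0 on the arrays of darkness, 3-h light and 12-h light, and DKO larvae had -5.91, -5.06 and -1.68. For arr3a they were 3.67, 3.24 and 5.20 in WT larvae in the same order. In both genes the 3-h level lay closer to the dark level than to the 12-h level. By contrast with per2 and arr3a, igfbp1b had 3.48, 4.52 and 5.56 in WT larvae and 2.87, 4.45 and 5.69 in DKO larvae. The gene cyp24a1 had 0.40, 1.93 and 3.09 in WT larvae. In igfbp1b and cyp24a1 the 3-h level lay between the levels of darkness and 12-h light. The opsin gene opn1mw1 had 6.53, 6.26 and 4.97 in DKO larvae, 7.12, 6.32 and 5.14 in TKO larvae and 6.49, 6.15 and 4.91 in WT larvae, with 3-h light in between and closer to darkness, and rdh8b had -0.18, 0.30 and -1.38 in WT larvae, where 3-h light was the highest.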

How the data were processed

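Total RNA of larvae was labelled with Cy3, and the authors read the arrays with Agilent Feature Extraction; the deposited intensity is what Feature Extraction calls the processed signal, corrected for background and spatial trend but not scaled between arrays. The paper's methods name another software than the files' headers. A deposited table holds the same intensities times 1 constant per array. Deposited flags mark dim, saturated and irregular spots.

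From these, log2 signals minus the 75th percentile of non-control spots were computed, irregular spots were left out, and spots of a probe were averaged. The 40 probes spotted more than once had an SD of 0.16 between spots (log2), or 0.23 for a difference of 2 arrays; this covers spots only, and the number of arrays limits the precision. Probes were named through RefSeq accessions (assembly GRCz12tu): 26094 of 43603 have a symbol, and 13443 genes are named.

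Limma 3.58.1 in R 4.3.3 fitted genotype and lighting on 6 arrays without a floor (2 residual degrees of freedom, prior 3.43). For fold counts and bounds, dim signals were set to the smallest value among spots of that array that passed the background flag. On simulated data for this comparison (38204 probes), 94 of 100 probes changed 2-fold and 100 of 100 changed 4-fold were recovered, with 13 false calls. The simulated spread came from the model's own fitted prior, with independent errors and no difference between genotypes in the response. It therefore checked the fit and does not give the error rate of the calls on these arrays. For 3 probes a value was missing on an array after irregular spots were removed, and none of them was called.

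The comparison, gene lists and tests were chosen with earlier results of these data known. Several gene lists hold members that the paper names among the genes most induced by 12-h light in DKO larvae of this series. Some lists, such as those of clock genes, cones, DNA replication and mitosis, hold members of a cluster that the paper describes as inhibited in rhythm-forming larvae. That cluster also comes from this series. The shares of called members, and of positive or negative differences, in all these lists are therefore not independent support. The genes named are all Period and Cryptochrome genes, the 12 genes of largest increase and of largest decrease among called probes, up to 4 members of each of 27 lists (called ones first, by size), and the 4 genes varying most between genotypes. Other called list members and the genes under other observations were chosen after their values were seen. Alternatives were quantile, median and deposited-table scaling, normexp (offset 50) with quantile normalization, other filters on dim probes, other fold thresholds, no floor, no genotype term, all 9 arrays, trend and robust options, array weights, 1 value per gene, the brightest probe, and leaving out each pair. No promoter or protein sequence was used here. Counts and figures were made with pandas 2.3.3, numpy 2.4.6 and matplotlib 3.10.9.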

Additional observations from a re-analysis of the deposited data

Results flagged for a closer look

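Among the 129 genes named by rule, 8 had differences between 12-h light and 3-h light of opposite signs in a pair of genotypes with each beyond 0.23, the SD between repeated spots for a difference of 2 arrays. Genes with opposite signs but 1 of the values nearer to 0, such as nr1d1, cry2 and bhlhe40, are not among the 8. Whether the genotypes differ was not tested, since each has 1 array per lighting.

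The TKO larvae were lower and WT larvae higher at 12-h light in 4 genes, with dim signals raised to the floor. The fatty acid synthase gene fasn2 differed by -4.26 in TKO and 0.61 in WT larvae, and the kinase gene wee2 by -1.45 in TKO and 0.52 in WT larvae. The immediate early gene fosab differed by -0.25 in TKO and 0.68 in WT larvae, and the cytokine gene tnfa by -0.47 in TKO and 1.74 in WT larvae. In 3 genes the DKO larvae were lower and WT larvae higher: zdhhc20a, a palmitoyltransferase gene (-0.26 in DKO, 3.97 in WT larvae), the chemokine gene ccl20a.3 (-0.91 in DKO, 1.42 in WT larvae) and zgc:172053 (-0.70 in DKO, 1.61 in WT larvae). The gene zgc:110286 had the opposite signs, with 1.41 in DKO and -0.26 in WT larvae. Of these, zdhhc20a, ccl20a.3, zgc:172053 and zgc:110286 were picked for varying most between genotypes.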

How the results depend on the processing

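The 528 calls became 1810 with normexp background correction (468 of the 528 among them), 2075 with limma's trend and robust options (507 shared), 198 with all 9 arrays, 108 without the genotype term, 21 without a filter on dim probes, and 291 genes with 1 value per gene. Leaving out a pair gave 87 to 263. With quantile, median or deposited-table scaling, array weights or probes well above background on all 6 arrays, counts stayed between 483 and 706. The 67 list members called became 132 with normexp, 137 with trend and robust options, 33 with all 9 arrays, 21 without the genotype term, 8 without a filter, and 21 to 45 without a pair. The 72 probes 2-fold apart in all 3 genotypes became 44 with normexp, 281 at 1.5-fold and 27 at 3-fold, and 92 to 93 over 2 pairs. Within genotypes, normexp gave 74 (DKO), 72 (TKO) and 80 (WT), 1.5-fold gave 1321, 900 and 1291, and 3-fold gave 61, 39 and 72. The share of calls higher at 12-h light was 70.8%, 62.7% to 71.0% under other scalings, 90.7% without the genotype term, 85.7% without a filter, 77.8% with all 9 arrays, 61.5% with trend and robust options, and 73.8% to 85.1% without a pair. The causes were not tested.

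No called gene that the text names by rule changed sign. Of the uncalled, some turned without the WT pair, with values over the left-out pairs of -0.79 to 0.01 for nr1d1, -0.33 to 0.083 for bhlhe40, -0.15 to 0.094 for rxrab, -0.083 to 0.63 for fosab, -0.34 to 0.87 for tnfa, -0.17 to 1.94 for zdhhc20a and -0.57 to 0.59 for ccl20a.3. Without the TKO pair fasn2 (-2.59 to 0.001) and wee2 (-0.76 to 0.23) turned, and rxrba did with normexp (0.004) and at its brightest probe (0.049). Of the 65 called genes named by rule, 25 were called without each pair. Dim probes limit what can be measured: 948 tested probes were not well above background on all 6 arrays. No replicate block was possible beyond genotype, since the labels give no replicate numbers.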

Other observations

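Several called genes outside the 27 lists share a function; they were chosen after their values were seen and are given as values only, as differences between 12-h light and 3-h light with limma's adjusted p.

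Of genes linked to heme, 4 were called higher and 1 lower among those picked. Ferrochelatase, fech, which inserts iron into heme, differed by 1.0 (SE 0.07, limma adjusted p = 0.00714), and blvra, which reduces biliverdin to bilirubin, by 1.34 (SE 0.06, limma adjusted p = 0.00324). Heme oxygenase 2, hmox2a, differed by 0.77 (SE 0.07, limma adjusted p = 0.0137) and tspo, a mitochondrial outer membrane protein, by 0.90 (SE 0.06, limma adjusted p = 0.00784). The gene of the first enzyme of red cell heme synthesis, alas2, went the other way, with 1 of 4 probes called (-0.45, SE 0.06, limma adjusted p = 0.0407), and the log2 of the summed signal of 5 red cell markers, alas2 among them, was 5.70 to 5.84 at 12-h light, against 5.94 to 6.15 at 3-h light. The heme oxygenase genes hmox1a and hmox1b of the iron list were not called. Methionine sulfoxide reductases, which repair oxidized methionine, were called higher as msrb3 (0.99, SE 0.06, limma adjusted p = 0.00532), msrb1a (0.83, SE 0.08, limma adjusted p = 0.015) and msrb1b (0.53, SE 0.07, limma adjusted p = 0.0451). Base excision repair had neil1, a DNA glycosylase (1.08, SE 0.06, limma adjusted p = 0.00476).

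Peptide hormone genes moved in both directions. Higher at 12-h light were kiss2, a kisspeptin of the hypothalamus (0.96, SE 0.08, limma adjusted p = 0.0125), pmchl, a melanin-concentrating hormone gene (0.90, SE 0.11, limma adjusted p = 0.0357), gip (0.73, SE 0.08, limma adjusted p = 0.0243) and fgf19 (0.73, SE 0.06, limma adjusted p = 0.0125). Lower were rln3a (-0.94, SE 0.06, limma adjusted p = 0.00598), beside the rln3b described above, and tshba, the beta subunit of thyrotropin (-0.82, SE 0.12, limma adjusted p = 0.049). Of the intestine, the chitinase genes chia.1, chia.2 and chia.3 were higher (1.05, 0.91 and 0.84, the last with 1 of 3 probes called), as was the glucose transporter slc5a1 (0.84, SE 0.08, limma adjusted p = 0.0178). How far the probes tell the chitinase genes apart is not known here. Of the 7 intestine markers tested, which include chia.1, 1 was called, and their median difference was 0.02. Among genes picked from mitochondrial respiration, sdha (0.47, SE 0.07, limma adjusted p = 0.0451, 1 of 3 probes called), sdhb (0.46, SE 0.06, limma adjusted p = 0.0429) and the assembly factor surf1 (0.51, SE 0.07, limma adjusted p = 0.0444) were called higher. How many respiratory genes were called was not counted, and 1.39% of all named genes were called higher, so these genes do not describe respiration as a whole. In the retina, the transcription factor gene rx2 (-0.89, SE 0.08, limma adjusted p = 0.0127) and the retinoschisin gene rs1b (-0.84, SE 0.07, limma adjusted p = 0.0129) were lower. Calls without each pair included fech, blvra, msrb3, neil1 and rln3a, but not the other genes of this section.

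Differences across probes correlated between genotypes, over 38204 to 38207 probes that are not independent replicates and share the slide of their genotype: Pearson's r was 0.435 for DKO with TKO, 0.358 for DKO with WT and 0.444 for TKO with WT larvae, and Spearman's rho was 0.352, 0.256 and 0.352.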
